A study of Mus musculus with 2 samples.

Results

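The genes described here encode enzymes and regulators of glycolysis, of the entry of pyruvate into the mitochondrion and of the citric acid cycle. They were taken by gene symbol from a list of 38 names. Of these, 36 were in the table of 19505 named genes, each with 1 platform identifier, and the remaining 2, Gpi1 (phosphoglucose isomerase) and Eno1 (enolase 1), were not analysed here. The samples were lung cells of mice (Mus musculus) sorted as positive for an SPC/GFP reporter and for EpCAM, from air-exposed control mice or from mice exposed to smoke, for 3 months in both cases. SPC commonly stands for surfactant protein C, which marks alveolar type 2 cells; EpCAM is found on the surface of epithelial cells. The sources used here do not give the strain, age or sex of the mice, their number, any pooling or how the reporter was built. RNA of each condition was hybridised to 1 Clariom S Mouse array, a whole-transcript microarray, so that every value below is a single measurement. No test across samples was possible, and the differences hold for these 2 samples rather than for the conditions.

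Glycolysis splits glucose into pyruvate in the cytosol and yields ATP and NADH. Pyruvate is either reduced to lactate or taken into the mitochondrion, where the pyruvate dehydrogenase complex turns it into acetyl-CoA for the citric acid cycle. Pyruvate dehydrogenase kinases switch that complex off by phosphorylation. Alveolar type 2 cells make and secrete surfactant lipid, and citrate leaving the mitochondrion supplies the acetyl-CoA for its fatty acids.

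The enzyme genes as a group differed little between the arrays, and none of them reached 2-fold in either direction. The members most above their air signal were Aldoc (brain-type aldolase), Idh2 (mitochondrial NADP-dependent isocitrate dehydrogenase), Cs (citrate synthase), Gapdh (glyceraldehyde-3-phosphate dehydrogenase) and Pdk2 (a pyruvate dehydrogenase kinase), each between 1.51-fold and 1.96-fold higher in smoke. Pfkp, the platelet-type phosphofructokinase, was 1.57-fold lower. The pyruvate dehydrogenase subunits and 2 of their 3 listed kinases lay on the higher side. A level filter was set at a log2 signal of 4.57, the median of all probe values, on the brighter array; 34 of the 36 members passed it, and Pdk4 and Sucla2 did not. Over the 34, 24 were higher and 10 lower in smoke, which is 70.6% higher. The share was 54.3% over all 10419 genes above the filter and 56.9% over the 8265 of them within the members' range of mean level. The members' median log2 difference, smoke minus air, was 0.185, against 0.06 over those 10419 genes and 0.09 over those 8265. Under quantile normalization of the arrays the members' median was 0.0975 and that of all genes above the filter -0.015, and 21 of the 34 members were higher.

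Past 2-fold there were 0 of the 34 members on either side, where 3.94% of all genes above the filter were higher by that much and 2.48% lower. At 1.5-fold, 5 members were higher and 1 was lower. The shares of all genes at that threshold were 14.5% higher and 9.19% lower, and among genes within the members' range of mean level they were 14.5% and 7.24%. In the members' own bins of mean level they averaged 14.0% and 6.35%. The members' shares were 14.7% (5 of 34) and 2.94% (1 of 34), so the higher count was near the background and the lower one rests on a single gene. The spread among genes of like level, given as a robust SD (a scaled median absolute deviation) in 10 bins of mean level, ran from 0.40 to 0.50 on the log2 scale for these members. It holds measurement error and real differences together. Of the 34 members, 10 (29.4%) lay at least 1 robust SD from the median of their bin, against 33.6% of all genes above the filter, and 0 lay at least 2 robust SD away, against 7.52%.

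**Figure D1:**
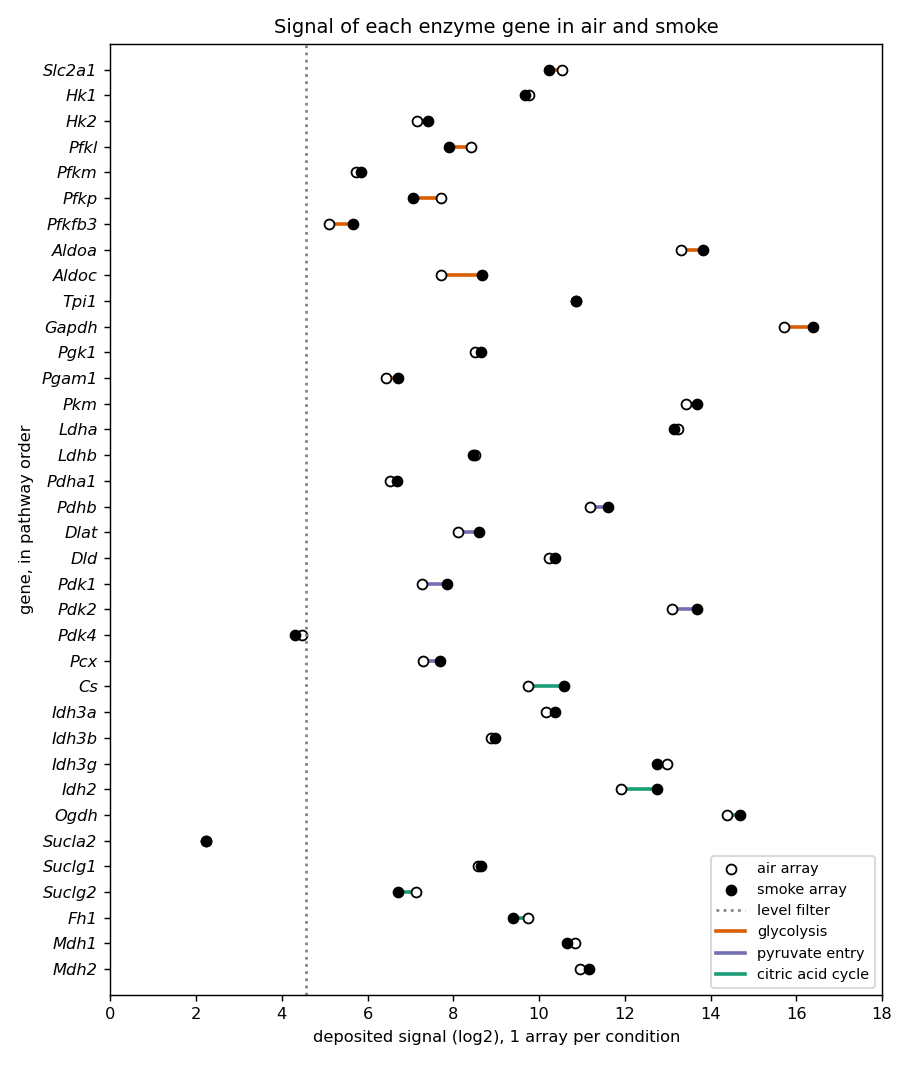
Deposited log2 signal of the 36 enzyme genes on the air array (open circles) and the smoke array (filled circles), in pathway order, with the bar between them coloured by step and the level filter of 4.57 as a dotted line. The circles of most genes lie close together; Aldoc, Idh2 and Cs have the longest bars to the right, Pfkp the longest to the left, and Sucla2 and Pdk4 sit left of the filter. Signals of different genes are not comparable with each other.

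**Figure D2:**
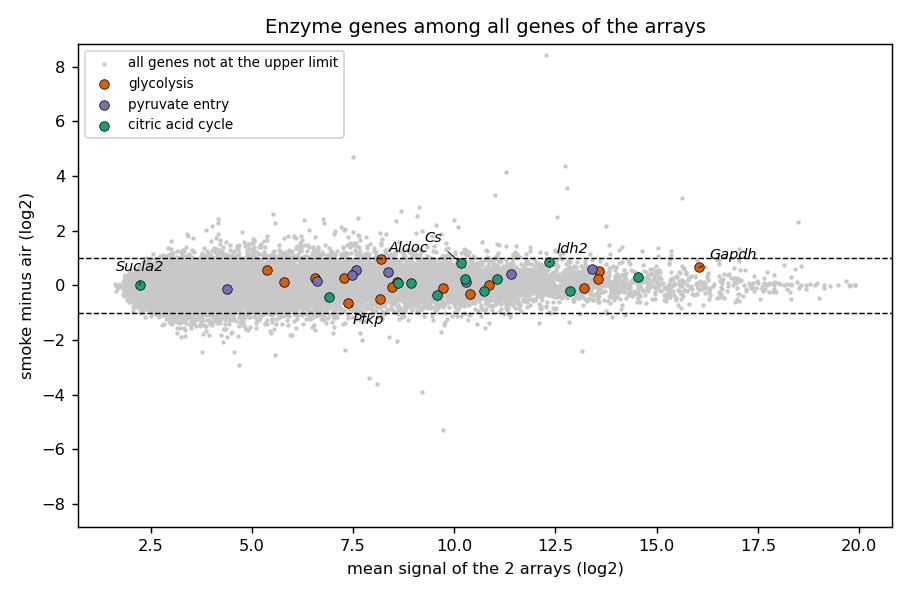
Log2 difference, smoke minus air, against the mean log2 signal of both arrays, for all genes not at the upper limit (grey) and the 36 enzyme genes (coloured by step); dashed lines mark 2-fold. The enzyme genes lie inside the dashed lines, within the cloud of genes of like level.

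To show the sequence in front of the genes with the largest differences, the 250 bases before the most upstream RefSeq start are printed for Aldoc, Idh2, Cs, Gapdh and Pfkp. Pdk2, which also passed 1.5-fold, and Ldha, added by choice, follow, and their stretches hold matches to the searched motifs. Other members hold matches too, among them Pcx and Pfkm, and are not printed. Build is GRCm38.p6 and each sequence is written 5′ to 3′ on the strand of its gene. Aldoc lies at chr11:78322823-78323072 (+), Idh2 at chr7:80115351-80115600 (-), Cs at chr10:128337477-128337726 (+), Gapdh at chr6:125165774-125166023 (-), Pfkp at chr13:6648772-6649021 (-), Pdk2 at chr11:95041372-95041621 (-) and Ldha at chr7:46845554-46845803 (+). Capitals mark matches on either strand to ACGTG, a form of the core that hypoxia-inducible factors bind, or to CACGTG, the E-box. Every CACGTG also holds ACGTG on both strands, so these matches overlap. The form GCGTG of that core was not searched and stays unmarked where a stretch holds it. TTATGTAA, a D-box form, and AGGTCA, a nuclear receptor half-site, were searched too.
Aldoc: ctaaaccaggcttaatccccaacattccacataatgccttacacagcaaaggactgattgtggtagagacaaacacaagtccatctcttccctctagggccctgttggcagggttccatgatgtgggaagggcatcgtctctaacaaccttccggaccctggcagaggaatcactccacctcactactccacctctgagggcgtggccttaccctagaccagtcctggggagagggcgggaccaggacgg
Idh2: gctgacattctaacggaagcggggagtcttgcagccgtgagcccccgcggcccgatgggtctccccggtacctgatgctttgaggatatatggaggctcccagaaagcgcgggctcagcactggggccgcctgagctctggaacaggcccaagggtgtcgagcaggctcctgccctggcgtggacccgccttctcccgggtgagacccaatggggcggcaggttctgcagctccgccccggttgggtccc
Cs: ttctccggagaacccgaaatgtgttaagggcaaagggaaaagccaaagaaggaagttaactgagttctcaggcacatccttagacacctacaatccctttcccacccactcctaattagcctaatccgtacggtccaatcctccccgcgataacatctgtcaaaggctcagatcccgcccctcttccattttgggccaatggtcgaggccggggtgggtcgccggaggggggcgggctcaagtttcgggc
Gapdh: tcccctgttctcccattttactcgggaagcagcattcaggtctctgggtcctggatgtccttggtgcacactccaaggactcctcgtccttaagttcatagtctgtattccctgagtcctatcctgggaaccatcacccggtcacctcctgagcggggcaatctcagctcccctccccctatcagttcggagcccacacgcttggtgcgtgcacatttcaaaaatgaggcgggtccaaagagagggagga
Pfkp: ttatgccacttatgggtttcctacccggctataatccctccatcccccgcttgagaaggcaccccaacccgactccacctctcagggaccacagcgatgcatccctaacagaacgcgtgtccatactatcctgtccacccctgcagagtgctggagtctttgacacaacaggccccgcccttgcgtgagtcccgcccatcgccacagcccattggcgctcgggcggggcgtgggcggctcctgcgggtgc
Pdk2: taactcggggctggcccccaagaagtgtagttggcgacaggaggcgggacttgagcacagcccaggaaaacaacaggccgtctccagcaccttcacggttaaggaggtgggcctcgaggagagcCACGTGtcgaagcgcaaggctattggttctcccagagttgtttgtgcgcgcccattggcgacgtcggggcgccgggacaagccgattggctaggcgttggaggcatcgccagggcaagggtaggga
Ldha: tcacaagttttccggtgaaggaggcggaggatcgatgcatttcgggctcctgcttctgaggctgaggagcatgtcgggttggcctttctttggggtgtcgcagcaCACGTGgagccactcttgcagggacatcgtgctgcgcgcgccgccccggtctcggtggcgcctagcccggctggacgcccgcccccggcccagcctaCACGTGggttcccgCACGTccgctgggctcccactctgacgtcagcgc

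The stretches of Aldoc, Idh2, Cs, Gapdh and Pfkp held none of the 4 motifs. That of Pdk2 held 1 CACGTG, from 126 to 121 bases before the start, and that of Ldha held 2, from 145 to 140 and from 48 to 43 bases before it, with a further ACGTG match from 34 to 30. Ldha had almost the same signal on both arrays, while Pdk2 was 1.51-fold higher in smoke. In windows of 300 bases (250 before and 50 after the most upstream start), 15 of the 33 members above the filter that matched a window held ACGTG, 45.5%, against 25.3% of 8473 genes above the filter. CACGTG was in 4 of the 33, 12.1% against 9.96%. TTATGTAA was in 0 of the 33, against 0.437% of genes, and AGGTCA in 4, 12.1% against 12.2%. Windows with a CpG observed-over-expected ratio above 0.6 made up 26 of the 33, 78.8% against 70.2%. ACGTG itself holds a CpG: over all 32851 windows of the RefSeq table it was in 28.9% of windows above that ratio and in 14.5% of the rest. Among the members' 53 windows, some of which overlap within a gene, the shares were 57.9% (22 of 38) and 26.7% (4 of 15). The 15 members with ACGTG had a median log2 difference of 0.28, from -0.32 (Slc2a1) to 0.97 (Aldoc). They include Aldoc and Gapdh, whose match lies in or reaches into the 50 bases after the start, which are not printed. The 18 without ACGTG had a median of 0.115, from -0.65 (Pfkp) to 0.84 (Idh2). Both groups thus held genes higher and lower in smoke, and a match is a description of letters and not a binding site.

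Slc2a1 and the hexokinases differed little. Slc2a1, the glucose transporter GLUT1, gave log2 signals of 10.54 (air) and 10.22 (smoke), which differ by -0.32. Hk1 and Hk2, the hexokinases that trap glucose as glucose-6-phosphate, went in opposite directions. Hk1 stood at 9.76 and 9.67 (-0.09) and Hk2 at 7.15 and 7.41 (0.26). All 3 lay within 1 robust SD of genes of like level.

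The phosphofructokinase subunits, which catalyse the committed step of glycolysis and assemble into mixed tetramers, were not alike. Pfkp was at 7.71 (air) and 7.06 (smoke), a difference of -0.65, and Pfkl, the liver-type subunit, was at 8.42 and 7.91 (-0.51). Pfkm, the muscle-type subunit, was at 5.73 and 5.85 (0.12). Pfkl and Pfkp were thus both lower in smoke, at -1.33 and -1.62 robust SD from the median of their level bin, and Pfkm lay close to that median. Pfkfb3, which makes fructose-2,6-bisphosphate, the activator of phosphofructokinase, was at 5.10 and 5.67, a difference of 0.57 just above the level filter. After 16 was added to the linear signals, which damps low values, that difference was 0.41.

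Both aldolases of the list, which split fructose-1,6-bisphosphate, were higher in smoke. Aldoc stood at 7.71 (air) and 8.68 (smoke), a difference of 0.97 or 1.96-fold, the largest of the 36 members. In its level bin, 6.82% of genes differed by at least as much in either direction. Aldoa, the muscle-type and widely expressed aldolase, stood at 13.30 and 13.83 (0.53). Tpi1, triose phosphate isomerase, had nearly equal signals of 10.85 and 10.87.

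Gapdh, the dehydrogenase that produces NADH in glycolysis, was at 15.72 (air) and 16.38 (smoke), a difference of 0.66 or 1.58-fold. In its level bin 12.9% of genes differed at least as much. The payoff steps after it had smaller differences. Pgk1 (phosphoglycerate kinase) was at 8.51 and 8.64, Pgam1 (phosphoglycerate mutase) at 6.43 and 6.71 and Pkm (pyruvate kinase, muscle) at 13.43 and 13.68, differences of 0.13, 0.28 and 0.25. The lactate dehydrogenase subunits were level. Ldha stood at 13.24 and 13.15 (-0.09) and Ldhb at 8.50 and 8.45 (-0.05). Several of these genes, among them Gapdh and Pgk1, have processed copies elsewhere in the genome, and the sources used here do not say whether the array's probes separate them. Over the 16 measured glycolysis genes, 10 were higher and 6 lower, with a median of 0.125. That median was 0.0375 under quantile normalization and 0.045 after centring by level, with 9 genes higher under each. Of genes within the members' range of mean level, 56.9% were higher as deposited, with a median of 0.09.

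For the entry of pyruvate into the mitochondrion, all members above the level filter lay on the higher side. Of its 8 genes, 7 passed the level filter, and all 7 were higher in smoke as deposited, under quantile normalization, after centring by level and with the offset. These scalings are of the same 2 arrays and are not separate measurements. As deposited, 54.3% of all genes above the filter were higher, and 56.9% of those within the members' range of mean level. Only Pdk2 passed 1.5-fold (0.59), and it fell short under quantile normalization (0.48) and after centring (0.51). The median difference of the 7 genes was 0.42, against 0.06 over all genes above the filter; it was 0.30 with quantile normalization and 0.34 after centring. The catalytic subunits of pyruvate dehydrogenase, Pdha1 and Pdhb, had differences of 0.15 (6.53 and 6.68) and 0.42 (11.18 and 11.60). Dlat, the acetyltransferase core of the complex, was at 8.12 and 8.61 (0.49), and Dld, the lipoamide dehydrogenase it shares with other complexes, at 10.23 and 10.36 (0.13). Each of these 4 differences lay less than 1 robust SD from the median of its level bin.

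The kinases above the filter, which act against the complex, were higher as well. Pdk2 stood at 13.10 in air and 13.69 in smoke (0.59), and Pdk1, a kinase gene known as a hypoxia-inducible factor target, at 7.28 and 7.85 (0.57). Pdk4, the kinase induced by fasting and fatty acids, was below the filter at 4.46 and 4.31, where a difference of -0.15 cannot be read. Pcx, pyruvate carboxylase, which refills the cycle with oxaloacetate, was at 7.29 and 7.68 (0.39). Above the filter the subunits and their inhibitory kinases were therefore on the same side of 0, from 0.13 to 0.49 for the 4 subunits and at 0.57 and 0.59 for the kinases.

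In the citric acid cycle, 2 members stood apart from the others. Cs, the enzyme that joins acetyl-CoA to oxaloacetate, was at 9.75 (air) and 10.57 (smoke), a difference of 0.82 or 1.77-fold. In its level bin 8.67% of genes differed at least as much. Idh2, which makes NADPH in the mitochondrion, was at 11.91 and 12.75, a difference of 0.84 or 1.79-fold, and 6.72% of its bin differed at least as much. These were 1.57 and 1.90 robust SD above the median of their level bin.

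The subunits of the NAD-dependent isocitrate dehydrogenase, which work as one enzyme, did not share a direction. Idh3a (catalytic) was at 10.15 and 10.38, Idh3b at 8.87 and 8.97 and Idh3g at 12.98 and 12.76, differences of 0.23, 0.10 and -0.22; that of Idh3b was -0.005 under quantile normalization. Ogdh, of the 2-oxoglutarate dehydrogenase complex, was at 14.39 and 14.68 (0.29). Of the succinyl-CoA synthetase subunits, Suclg1 (shared by both forms of the enzyme) was at 8.57 and 8.64 (0.07) and Suclg2 (GTP-forming) at 7.13 and 6.70 (-0.43). Sucla2 (ATP-forming) was below the filter at 2.23 and 2.24, where no difference can be read. Fh1, fumarate hydratase, was at 9.74 and 9.40 (-0.34). The malate dehydrogenases, which also shuttle reducing equivalents between cytosol and mitochondrion, split by compartment: cytosolic Mdh1 was at 10.84 and 10.64 (-0.20) and mitochondrial Mdh2 at 10.95 and 11.17 (0.22), each within 1 robust SD of genes of like level. Over the 11 cycle genes above the filter, 7 were higher and 4 lower, with a median of 0.10 that was -0.005 under quantile normalization and 0.00 after centring by level, with 5 genes higher under each.

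**Figure D3:**
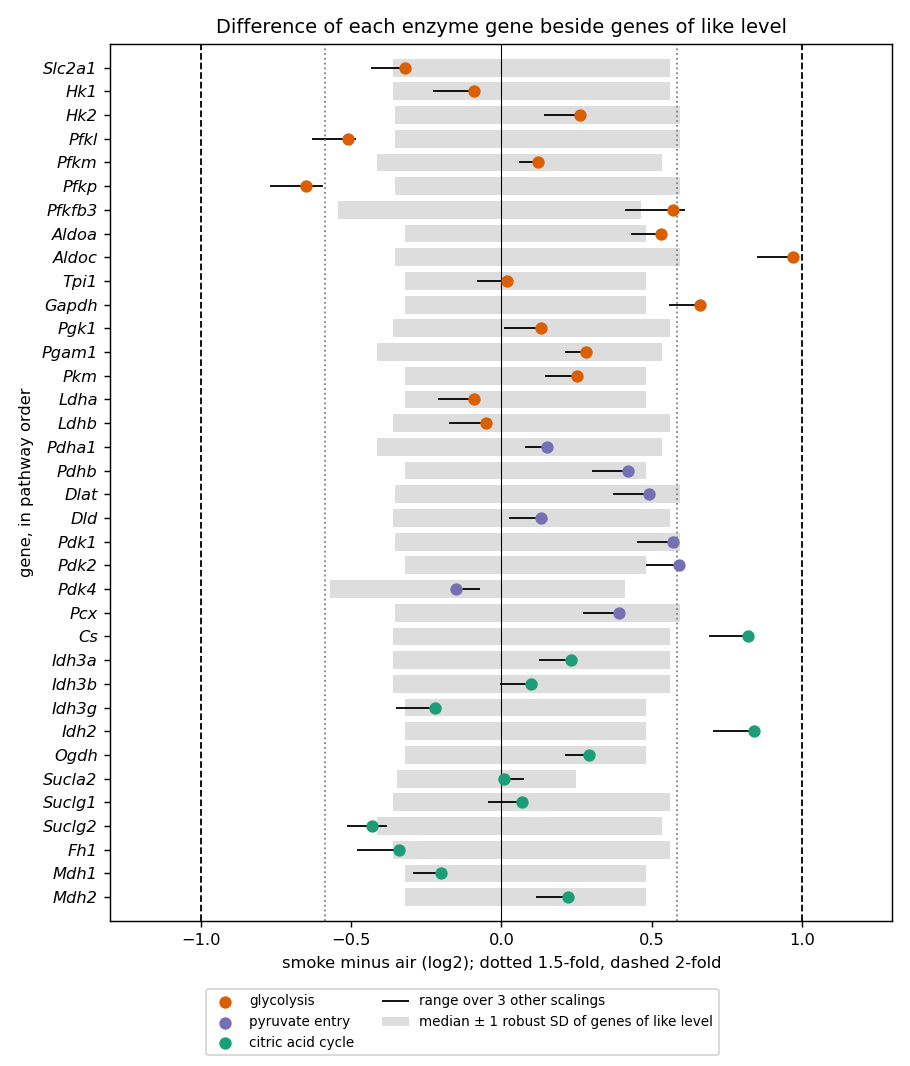
Log2 difference, smoke minus air, of the 36 enzyme genes (points, coloured by step) beside the median ± 1 robust SD of genes of like mean level (grey bars). Black lines give each gene's range over the deposited values, quantile normalization, centring by level and an offset of 16; dotted and dashed lines mark 1.5-fold and 2-fold. Of the 34 members above the filter, 24 lie within the grey bars, and Tpi1, Idh3b and Suclg1 are those whose lines reach or cross 0.

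Other genes of carbon metabolism were taken from lists of related pathways. Of 27 other pyruvate and citric acid cycle genes, 18 were above the filter, 13 of them higher, 4 lower and 1 (Got2) equal, with a median of 0.29. None passed 2-fold. The largest difference was that of Slc25a11, the mitochondrial 2-oxoglutarate and malate carrier, at 10.71 in air and 11.62 in smoke (0.91). Of 19 genes of gluconeogenesis and glycogen, 11 were above the filter, 9 higher and 2 lower, with a median of 0.34; the largest difference was that of Pgm1, phosphoglucomutase, at 11.25 and 12.03 (0.78). No gene of that list passed 2-fold.

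Among 18 hexose and monocarboxylate transporters, 9 were above the filter and 6 of these were higher, with a median of 0.17. Slc5a1, the sodium-coupled glucose transporter SGLT1, alone passed 2-fold, with 7.43 (air) and 8.97 (smoke), a difference of 1.54 or 2.91-fold. It stood on the other side of 0 from Slc2a1 (-0.32), the facilitative transporter of the members. Of 24 other glycolysis isozymes and regulators, 14 were above the filter, 8 higher and 6 lower, with a median of 0.105. Ldhd, the D-lactate dehydrogenase, was past 2-fold, but from 3.95 in air, below the filter, to 4.96 in smoke; its difference of 1.01 was 0.58 with the offset. Eno1b, a near copy of Eno1 that probes may not separate from it, was at 7.70 and 7.27 (-0.43).

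The pentose phosphate pathway, which makes NADPH in the cytosol, had a median of -0.06 over its 6 measured genes of 8 listed, with 2 higher and 4 lower; Rpe, ribulose-phosphate epimerase, had the largest difference, at 9.31 and 8.75 (-0.56). The hypoxia-inducible factor list held 15 genes above the filter of 19, 9 higher and 6 lower, with a median of 0.11 and 0 past 2-fold. Its largest difference was that of Bnip3l, a mitophagy receptor, at 9.57 and 10.37 (0.80). Among 17 of 20 fuel regulators above the filter, 11 were higher and 6 lower, with a median of 0.05. Irs2, an adaptor of the insulin receptor, alone passed 2-fold, with 14.76 (air) and 13.69 (smoke), a difference of -1.07.

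**Figure D4:**
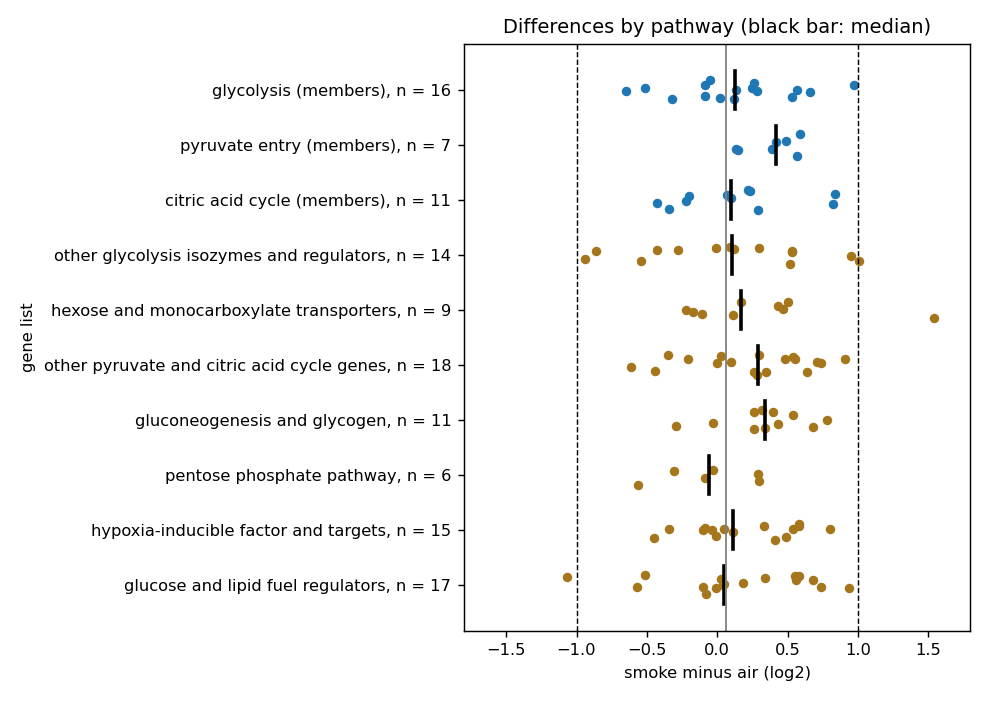
Log2 difference, smoke minus air, of each gene above the level filter in the 3 member groups (blue) and 7 related lists (brown), with each list's median as a black bar; points are spread vertically for visibility. Dashed lines mark 2-fold and the grey line is the median of all genes above the filter, 0.06. The pyruvate entry genes all lie to the right of the grey line, and Slc5a1 is the point farthest right.

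The sorted cells carried the markers of alveolar type 2 cells. Of 10 measured, 5, Sftpc among them, lay at 19.93 in air and in smoke alike. That is the highest value of either array, where no difference can be read. The other 5 ran from 17.75 to 19.91 in air and from 17.79 to 19.91 in smoke. Signal at the highest value was not particular to these markers, since the club cell marker Scgb1a1 also lay at 19.93 on both arrays. Markers of other cell types moved between the arrays. Of 8 endothelial markers, 7 were lower in smoke, with levels from 8.49 to 14.34 in air and from 7.54 to 13.86 in smoke and a median difference of -0.765. Of 6 neutrophil markers, 5 were higher, with a median of 0.75. Their levels ran from 4.25 to 8.12 in air and from 5.15 to 8.72 in smoke. Retnlg (4.25 and 5.15) and Il1r2 (4.49 and 5.61) passed the filter through the smoke array alone, which favours a higher count. S100a8 differed by 0.28 and S100a9 was lower (-0.19). Of 7 alveolar type 1 markers, 6 were lower, with a median of -0.23. Their levels ran from 5.74 to 18.41 in air and from 5.53 to 18.54 in smoke. Both ciliated cell markers above the filter were lower, with a median of -1.035. The microtubule-binding protein gene Tppp3 stood at 10.46 and 9.02. Dnah5 (4.62 and 3.99) passed the filter through the air array alone, which favours a lower count. All 3 macrophage markers above the filter were lower as well, with a median of -0.23. Only Chil3 differed much, at 11.27 and 9.87, while Mrc1 and Csf1r differed by -0.23 and -0.15. Of the 3 measurable club cell markers 2 were lower, with a median of -0.33. Scgb3a1 stood at 6.85 and 5.02 and Cyp2f2 differed by -0.33, while Scgb3a2 was higher in smoke, with a difference of 0.6. Among 5 fibroblast and smooth muscle markers 3 were lower, with a median of -0.05 that was 0.03 under quantile normalization. Of 3 lymphocyte markers above the filter 2 were higher, with a median of 0.09. One of them, Cd3d (3.63 and 4.66), passed the filter through the smoke array alone, and the other, Cd3e, differed by 0.09. The part of these other cell types in the differences of the enzyme genes was not tested. In such bulk samples fewer cells of a type and less RNA per cell cannot be told apart.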

How the data were processed

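The table holds 22206 platform identifiers on 2 arrays, 1 per condition. The authors deposited 1 value per identifier, read here as log2 signal from its range of 1.55 to 19.93, since no label states the scale. The submitters' processing notes name Transcriptome Analysis Console without a version; the sources used here do not give background correction, normalization or genome build. The medians were 4.61 (air) and 4.53 (smoke). Genes were named from the platform annotation (19572 identifiers with 1 symbol, 0 with several, 2634 unnamed), and identifiers of 1 gene were averaged. Differences are smoke minus air, without a test; folds are 2 to that power and hold on the deposited scale only. The 16 genes that reached the highest value in air and in smoke alike were left out of counts. All members were to be named; of each related list, the genes past 2-fold or else that with the largest difference, with Eno1b added after its value was seen. The members and lists were chosen with earlier results of these data known. Promoter windows came from RefSeq (GRCm38.p6) by symbol. Code was tested on simulated data and run with Python 3.11.15, numpy 2.4.6, pandas 2.3.3 and matplotlib 3.10.9.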

Additional observations from a re-analysis of the deposited data

How the results depend on the processing

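The members' median difference was 0.185 as deposited and ran from 0.0975 under quantile normalization to 0.185, staying positive under all 8 alternatives tried. No member reached 2-fold or 3-fold under any normalization or filter. At 1.5-fold, 5 were higher and 1 lower; quantile normalization gave 3 and 2, and centring by level 4 and 2. Pfkl passed the threshold on the lower side in both, Gapdh and Pdk2 fell short of it in both, and Pfkfb3 passed it after centring. Under quantile normalization 21 of 34 members were higher in place of 24, because Tpi1, Idh3b and Suclg1 changed sign. Over all genes, 410 were 2-fold higher and 258 lower. These counts were 243 and 102 with the offset, 212 and 74 with the filter at the 75th percentile, 1514 and 958 at 1.5-fold, and 66 and 35 at 3-fold; without a level filter 407 were lower. The 1.5-fold counts of members under other settings were added after the data were seen. No paired analysis was possible because each condition has 1 array. No detection calls were used, so the depth of low signals such as Sucla2 and Pdk4 is unknown.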
